A study of Mus musculus with 12 samples.

Results

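The 77 mitochondrial ribosomal protein genes of the deposited expression table were followed through 3 populations of fetal mouse thymocytes, with and without conditional deletion of Bcl6. They were taken by name, as every gene called Mrpl or Mrps followed by a number, and made up 77 of the 24421 genes listed. Of the 77, 50 encode proteins of the large mitochondrial ribosomal subunit and 26 proteins of the small subunit. Mrps36 carries the name but encodes a component of the oxoglutarate dehydrogenase complex and not a ribosomal subunit. Mrps30 and Mrps18a are counted with the large subunit, where their proteins are placed despite the letter S. All 77 passed the filter on low values and were tested.

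Mitochondria carry their own ribosome, whose RNAs come from mitochondrial DNA and whose proteins are all made from nuclear genes in the cytosol and imported. It translates only the few membrane subunits of the respiratory chain and ATP synthase that mitochondrial DNA encodes, so its proteins, the imported respiratory subunits and the factors of mitochondrial translation have to be made in concert. Thymocytes that pass beta-selection grow and divide before they settle as small double-positive cells, and growth and division place high demands on both cytosolic and mitochondrial translation.

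Thymi came from C57BL/6 embryos at stage E16.5 (E17.5 in the treatment protocol) that all lacked Rag1 and were homozygous for loxP-flanked Bcl6. Control embryos were Rag1KO Bcl6fl/fl LckCre-, and KO embryos were Rag1KO Bcl6fl/fl LckCre+, in which the T lineage Lck promoter drives Cre, so loss of Bcl6 and presence of Cre cannot be told apart. CD25-positive cells (CD25), arrested before T cell receptor rearrangement, were sorted from unstimulated thymi. CD8-positive CD4-negative immature single-positive cells (ISP) and CD4 and CD8 double-positive cells (DP) were sorted from thymi cultured for 2 days with 1 µg/ml anti-CD3, an antibody that stands in for the missing receptor signal. Each of the 6 groups, 3 populations by 2 genotypes, had 2 libraries, and the labels do not say whether these were separate embryos or cultures, so p-values measure the spread between these samples, which may be technical.

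Values are RPKM, reads scaled to gene length and library size, and recovered reads per library ran from 9657633 to 14227980. Titles and sequencing library names disagree on population or genotype for 6 of the 8 anti-CD3 libraries, the developmental stage label names another population than the title for 5, and groups here follow the titles. By these titles the coreceptor Cd4 ran from 191 to 344 RPKM in DP libraries and from 13.9 to 20.5 RPKM in ISP libraries, and Il2ra, which encodes CD25, was at 538 to 603 RPKM in CD25 cells and 14.5 to 44.7 RPKM in the others. Values of a whole gene do not test deletion by Cre: Bcl6 stood at 72.5 and 70.0 RPKM in DP control and 87.7 and 111 RPKM in DP KO libraries. The Y-linked gene Ddx3y had 0 to 0.0979 RPKM across the ISP and DP KO libraries, 4 in all, and 7.28 to 56.3 RPKM across their 4 controls, so a difference in sex and one in genotype cannot be told apart in ISP and DP cells. Erythroid genes summed to 0.148 to 0.803 RPKM and B lineage genes to 0 to 0.387 RPKM in the 12 libraries.

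Promoters of 3 members with large changes are shown first, as the 150 bases before the RefSeq start on GRCm38.p6. Mrpl12 (chr11:120484487-120484636 on the plus strand) fell strongly in DP cells, Mrps22 (chr9:98601680-98601829 on the minus strand) had the largest fitted difference between genotypes in DP cells, and Mrpl52 (chr14:54426759-54426908 on the plus strand) had the largest rise in ISP cells. Capitals mark letters that match an NRF1-type motif (GCGC, then A and any base, then GCGC) or an ETS/GABP-type motif (CCGGAAG), on either strand.
Mrpl12: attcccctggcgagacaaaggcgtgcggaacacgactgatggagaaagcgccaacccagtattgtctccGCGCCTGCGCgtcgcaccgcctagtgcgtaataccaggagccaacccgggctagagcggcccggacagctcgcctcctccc
Mrps22: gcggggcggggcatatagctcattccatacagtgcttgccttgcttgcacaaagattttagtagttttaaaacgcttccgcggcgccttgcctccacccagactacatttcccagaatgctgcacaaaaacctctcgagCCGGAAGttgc
Mrpl52: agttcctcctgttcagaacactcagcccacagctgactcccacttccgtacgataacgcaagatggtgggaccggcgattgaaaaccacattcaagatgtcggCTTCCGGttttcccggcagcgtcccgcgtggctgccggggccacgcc
NRF1 and GABP are activators of many nuclear genes for mitochondrial proteins, and YY1 is a zinc finger factor of many housekeeping promoters. Windows of 300 bases, from 250 before to 50 after the start, were found in RefSeq for 68 of the 77 genes (74 windows). The ETS/GABP-type letters were in 33.8% of the members' windows, against 18.9% of the windows of all tested genes and 8.86% of all windows. The NRF1-type letters were in 17.6%, against 10.8% and 4.60%, and YY1-type letters (AAGATGGC) in 16.2%, against 4.77% and 2.75%. The E-box CACGTG, which MYC and MAX can bind, was in 9.46% of the members' windows and in 10.2% of those of tested genes. These 7 member windows came from 5 of the 68 genes, as overlapping windows of Mrpl2 held the same site. The GC box GGGCGG was in 52.7% against 62.9%, and TATAAA in 6.76% of both. Both strands were searched, 42 of the 68 genes held at least 1 of the first 3 motifs, and Mrps6 held none of these 3 but 4 GC boxes. A match of letters is a description and not a binding site.

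The members lie on 17 chromosomes, none on X or Y. In the GENCODE M21 annotation of GRCm38, 18 of 77 (23.4%) start within 1000 bases of, and head to head with, another protein-coding gene whose body does not overlap theirs, against 6.76% of 22028 protein-coding genes. Mrps12, whose protein lines the decoding centre, pairs in this way with Sars2, the mitochondrial seryl-tRNA synthetase. Mrpl30 pairs with Mitd1, and Mrpl49 with the ribosomal protein fusion gene Fau. Mrpl46 and Mrps11 overlap each other at their starts on opposite strands. Exons of 32 members overlap another gene, Mrpl18 with Tcp1 and Mrps6 with Slc5a3 among them. Whether counting used strand is not given in the sources used here, so reads from such pairs cannot be told apart.

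The members were well expressed, each with 106 to 4497 recovered reads per library. Their mean level over the 12 libraries ran from 9.94 RPKM for Mrps25 to 286 RPKM for Mrps18c, with a median of 58.2 RPKM, and 76 of 77 were at or above the median of all tested genes (13.3 RPKM). Mrps18c, Mrpl33 and Mrpl18 were the 3 highest, and Mrps25, Mrpl19 and Mrpl17 the 3 lowest. Median levels of the subunits were alike, 58.9 RPKM for the 50 large-subunit genes and 58.6 RPKM for the 26 small-subunit genes. Levels spanned 28.8-fold. Within a gene the 12 libraries spanned 1.20-fold to 3.85-fold, and 56 of 77 stayed under 2-fold.

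Summed over the 77 genes, the level was highest in ISP cells and lowest in DP control cells. It was 5907 and 6269 RPKM in the CD25 control libraries and 5720.0 and 5769 in the CD25 KO libraries. After anti-CD3 it was 6980.5 and 7252 RPKM in the ISP control libraries and 7154 and 7195 in the ISP KO libraries. In DP cells it was 4509 and 4492 RPKM in the DP control libraries and 5281 and 5739.6 in the DP KO libraries. The 4 ISP libraries were above all 4 CD25 libraries. Both DP controls and DP KO library 1 were below the CD25 range, DP KO library 2 was within it, and both DP KO libraries were above both DP controls. The members took 1.06% to 1.45% of all summed RPKM. Cytosolic ribosomal protein genes (81 listed) summed to 34166 to 40881 RPKM in CD25 cells, 37991 to 42185 RPKM in ISP cells and 18729.5 to 22789.7 RPKM in DP cells. The 75 nuclear genes of oxidative phosphorylation subunits summed to 21277 to 24176, 28254 to 29891 and 18708 to 24385 RPKM. The ISP mean was 1.21 times the CD25 mean for the members, 1.06 times for cytosolic ribosomal proteins and 1.27 times for oxidative phosphorylation, and the DP mean was 0.701, 0.516 and 0.727 times the ISP mean.

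**Figure D1:**
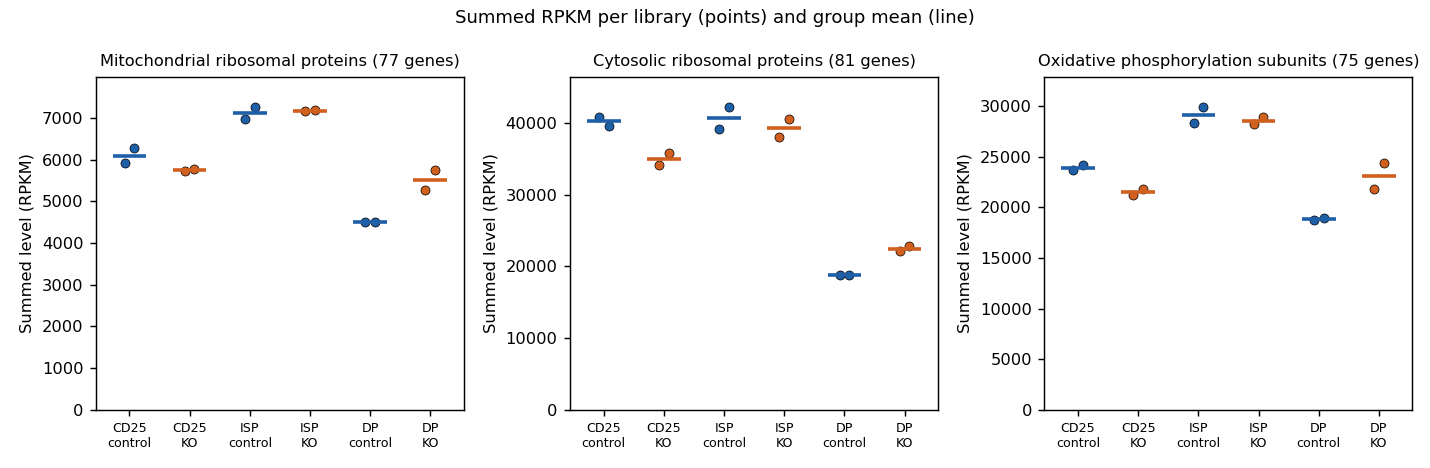
Summed RPKM (y axis, from 0) of 3 gene lists in each of the 6 groups (x axis). Points are libraries, 2 per group, blue for control and orange for KO, and lines are group means. For the mitochondrial ribosomal proteins the ISP libraries are highest and the DP control libraries, at 4509 and 4492 RPKM, are lowest.

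**Figure D2:**
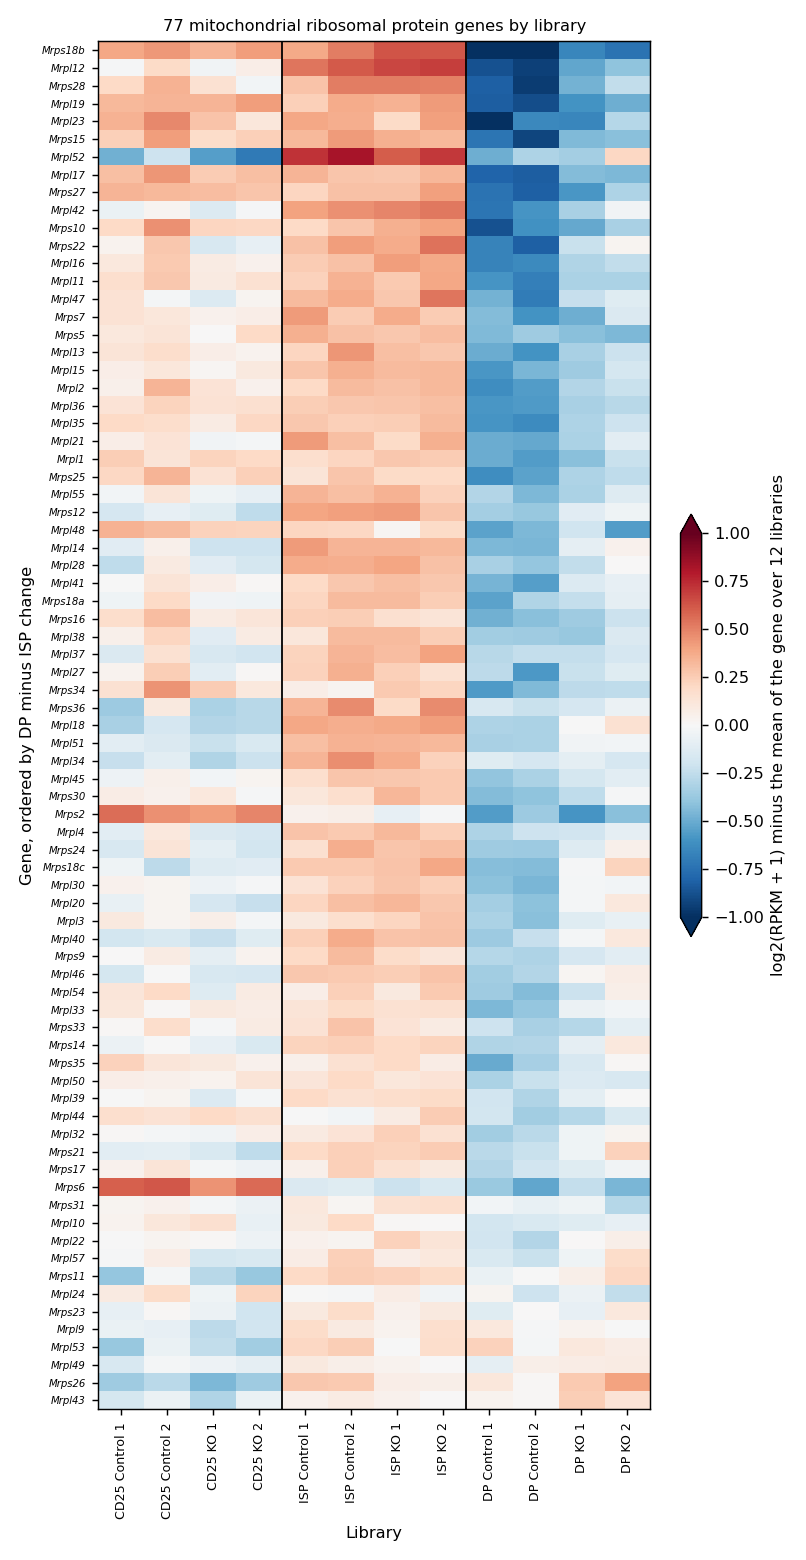
The 77 members (lines, ordered by the DP minus ISP change) in the 12 libraries (columns). Colour is log2(RPKM + 1) minus the mean of that gene over the 12 libraries, from -1 (blue) to 1 (red), with values past either end drawn in the end colour. Most members are blue in the DP control columns, and Mrps6 and Mrps2 are red in the CD25 columns.

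The first step asked how the members differ between unstimulated CD25 cells and the ISP cells that arise under anti-CD3. Stage, the 2 days of culture and the antibody cannot be told apart in this comparison. In ISP cells 52 of 77 members were higher and 2 were lower, where 33.1% of all 11303 tested genes were higher and 30.9% lower. The called threshold throughout is a Benjamini-Hochberg adjusted p under 0.05 in limma on log2(RPKM + 1). The median change was 0.20 over the members and 0.01 over all genes, on that log2 scale. Large-subunit genes were higher in 37 of 50 cases and lower in 0, and small-subunit genes higher in 14 of 26 and lower in 2. All 4 ISP libraries lay above all 4 CD25 libraries for 47 members (28.8% of all genes) and below them for 3 (27.5%). With every library rescaled to the same summed value, 31 members were higher and 7 lower, since summed RPKM was larger in ISP than in CD25 libraries, and the all-gene median moved to -0.10. With only the 4 anti-CD3 libraries whose population agrees in title and library name, 36 were higher and 2 lower.

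Mrpl52 (ENSMUSG00000010406.12, chr14:54426909-54429756, plus strand), a large-subunit protein without a bacterial counterpart, rose most. Its level was 36.5 and 44.2 RPKM in the CD25 control libraries and 34.7 and 31.0 in the CD25 KO libraries. In ISP cells it was 85.2 and 91.8 RPKM in the ISP control libraries and 78.6 and 84.5 in the ISP KO libraries. The ranges did not overlap, and the mean was 2.32-fold higher (log2 change 1.20 ± 0.10, SE, limma adjusted p = 9.4e-07). Mrpl18 (ENSMUSG00000057388.9, chr17:12911349-12916345, minus strand), a protein of the central protuberance, went from 204 to 226 RPKM in CD25 to 328 to 342 RPKM in ISP libraries, 1.57-fold (log2 change 0.65 ± 0.05, limma adjusted p = 1.6e-07). Mrpl12, the L7/L12-type stalk protein that recruits translation factors, was 138 and 158 RPKM in the CD25 control libraries and 135 and 145 in the CD25 KO libraries. All 4 ISP values were higher, at 201 and 212 RPKM in control and 221 and 224 RPKM in KO libraries, and its mean was 1.49-fold the CD25 mean (limma adjusted p = 1.4e-06). Mrpl34 rose 1.49-fold, from 109 to 125 to 159 to 187 RPKM, and Mrps36 1.50-fold, from 31.2 to 43.5 to 46.4 to 56.6 RPKM. Mrps12 rose 1.45-fold, from 81.8 to 92.4 to 119 to 132 RPKM.

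The 2 members that fell were small-subunit genes. Mrps6 (ENSMUSG00000039680.10, chr16:92058270-92112227, plus strand) was 149 and 151 RPKM in the CD25 control libraries and 133 and 145 in the CD25 KO libraries, and 88.0 and 89.6 RPKM in the ISP control libraries and 83.9 and 87.6 in the ISP KO libraries. Every ISP value was below every CD25 value, and the fall was 1.65-fold (log2 change -0.72 ± 0.05, limma adjusted p = 2.9e-07). Mrps2 fell 1.41-fold, from 33.4 to 37.1 to 23.3 to 25.9 RPKM (log2 change -0.48 ± 0.06, limma adjusted p = 2.3e-05). Among the listed highest members, Mrpl33 did not pass the test (281 to 302 RPKM in CD25 and 305 to 319 in ISP libraries, limma adjusted p = 0.068). Markers of natural killer cells also differed between these groups. Of 6 tested genes of that list, 5 were higher in ISP cells and 1, Nkg7, lower. The list summed to 591 to 779 RPKM in CD25 and 1030.0 to 1245 in ISP libraries, most of it Gzma (means 420 and 880 RPKM). From CD25 to ISP, mean Klrb1c went from 0.0726 to 4.81 RPKM, Ncr1 from 0.484 to 8.89 RPKM and Klrd1 from 1.34 to 22.1 RPKM. The part of these markers in the result was not tested. In bulk RNA, a different mixture of cells and a different amount of RNA per cell cannot be told apart.

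From ISP to DP the members fell almost as a body. Of 77, 69 were lower in DP cells and 0 higher, where 35% of all tested genes were lower and 35.6% higher, and 70 members had an unadjusted limma p under 0.05, all lower (36.1% of all genes were lower and 36.8% higher at this p). The median change was -0.51 over the members and 0.01 over all genes. The fall took in 45 of 50 large-subunit and 23 of 26 small-subunit genes, and Mrps36. By ancestry, 45 of 48 members with a bacterial homologue and 23 of 28 without one were lower. All 5 central protuberance genes, 4 of 5 stalk genes and 4 of 5 tunnel exit genes were among them. All 4 DP libraries lay below all 4 ISP libraries for 66 members (29.4% of all genes). With equal summed values the all-gene median moved to 0.16, and 64 members were lower and 3 higher. With the 4 anti-CD3 libraries of agreeing population, 66 were lower and 0 higher.

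Genes from marker lists of other cells also moved from ISP to DP. All 6 tested natural killer markers were lower, and that list summed to 1030.0 to 1245 RPKM in ISP and 112 to 217 RPKM in DP libraries, most of it Gzma. Eomes, a gene of that list below the filter on low values and not tested, had 0.323 to 0.509 RPKM in ISP and 0 to 0.0464 RPKM in DP libraries. The mast cell list summed to 13.1 to 34.5 and 0.853 to 3.2 RPKM, with both tested genes, Cpa3 and Kit, lower. The granule protease gene Mcpt4 was at 0 in every DP library, but also in every CD25 and ISP control library. Its mean in ISP KO libraries was 0.192 RPKM (SD 0.272). Mean Cpa3 was 24.9 RPKM in CD25, 18.3 RPKM in ISP and 0.905 RPKM in DP libraries. Mean Kit fell likewise, from 11.3 RPKM in CD25 to 4.27 RPKM in ISP and 1.42 RPKM in DP libraries. In CD25 libraries, where both were highest, Mcpt4, Cma1, Tpsb2 and Ms4a2 were at 0, so Cpa3 and Kit alone do not show mast cells. Long nuclear RNAs ran the other way, at 44.8 to 80.7 RPKM in ISP and 134 to 258 RPKM in DP libraries, with both tested genes higher. The part of these in the members' fall was not tested.

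Mrps18b (ENSMUSG00000024436.16, chr17:35910379-35916389, minus strand) fell most. It was 44.0 and 48.4 RPKM in the ISP control libraries and 52.5 and 52.1 in the ISP KO libraries. In DP cells it was 13.6 and 15.2 RPKM in the DP control libraries and 21.1 and 19.8 in the DP KO libraries. Each DP value was below each ISP value, and the mean fell 2.83-fold (log2 change -1.47 ± 0.05, limma adjusted p = 3.9e-10). Its paralogs, which occupy other sites of the ribosome, fell less. Mrps18a went from 100.5 to 108 to 59.3 to 81.2 RPKM, 1.48-fold down. Mrps18c went from 337 to 367 to 208 to 328 RPKM, 1.35-fold down (limma adjusted p = 8e-06 and 1.9e-05). The difference between paralogs was not tested.

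Mrpl12 (ENSMUSG00000039640.7, chr11:120484613-120489065, plus strand) dropped from 201 to 224 RPKM in ISP to 75.5 and 71.9 RPKM in DP control and 96.3 and 105 in DP KO libraries. No DP value reached the ISP range, and the fall was 2.46-fold (log2 change -1.31 ± 0.05, limma adjusted p = 8.4e-10). Mrps28 was 116 and 136 RPKM in the ISP control libraries and 136 and 135 in the ISP KO libraries. It was 53.3 and 48.5 RPKM in the DP control libraries and 68.0 and 79.7 in the DP KO libraries, a 2.09-fold fall without overlap (limma adjusted p = 4.5e-08). Mrpl19, one of the 3 lowest members, went from 15.5 to 17.8 to 6.57 to 8.96 RPKM, 2.19-fold down. Mrpl23, a protein of the nascent chain exit, went from 41.2 to 48.0 to 17.3 to 29.3 RPKM, 2.00-fold down (log2 change -0.99 ± 0.10). Mrpl52 fell 1.92-fold to 36.2 to 59.5 RPKM, close to its CD25 range of 31.0 to 44.2 RPKM.

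The 8 members not called lower were Mrpl43, Mrps26, Mrpl49, Mrpl53, Mrpl9, Mrps23, Mrpl24 and Mrps11. Mrps26 was 123 and 122 RPKM in the ISP control libraries and 106 and 106 in the ISP KO libraries. In DP cells it was 109.9 and 103 RPKM in the DP control libraries and 122 and 134 in the DP KO libraries, so the populations overlapped (log2 change 0.03 ± 0.05, limma adjusted p = 0.53). Mrpl49, with the smallest spread over the 12 libraries (1.20-fold), was at 58.4 to 62.4 RPKM in ISP libraries and 54.6 to 61.5 RPKM in DP libraries, against 51.8 to 57.2 RPKM in CD25. Mrpl43 was 59.3 to 62.8 RPKM in ISP and 59.7 to 70.7 in DP libraries, with a log2 change of 0.07 ± 0.06.

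**Figure D3:**
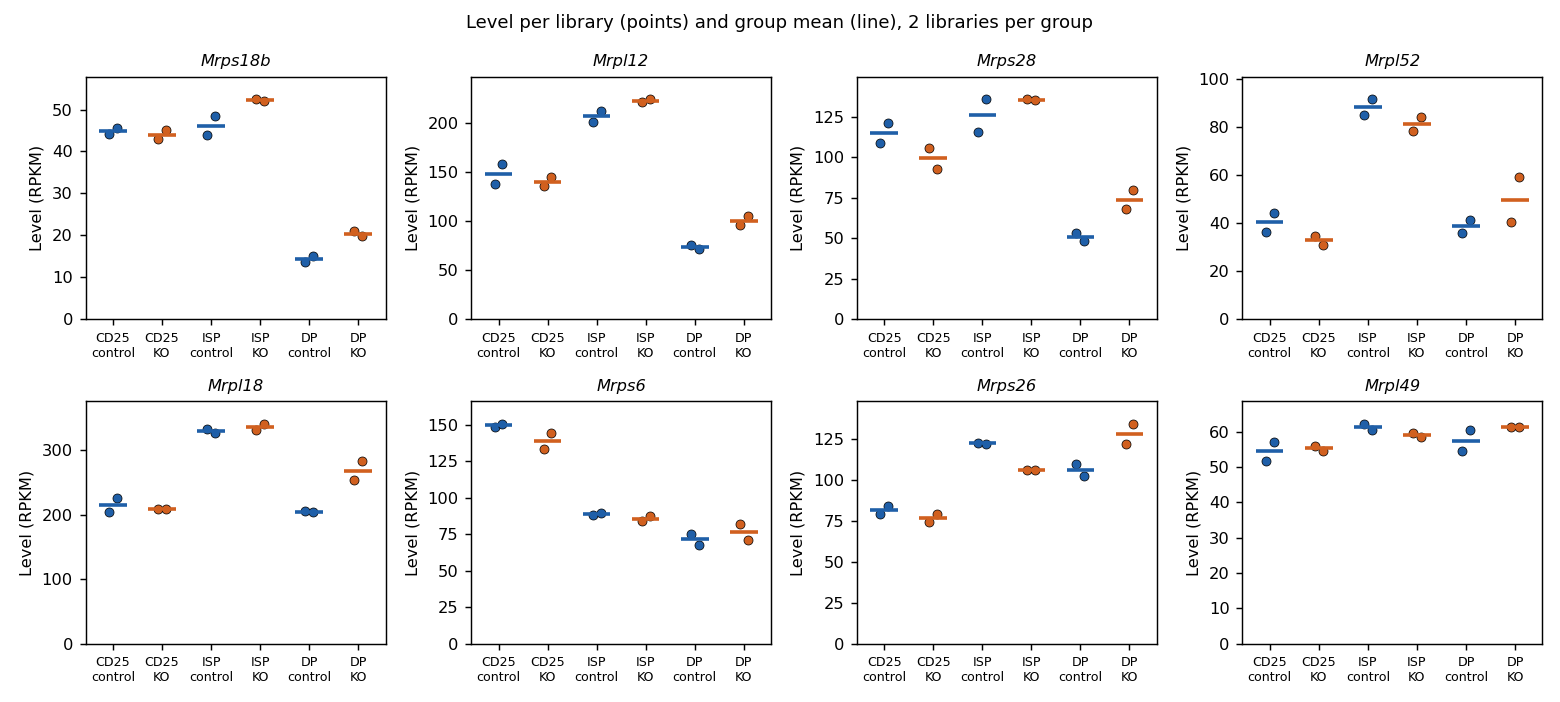
RPKM (y axes, from 0) of 8 members in the 6 groups (x axes), with libraries as points (blue control, orange KO) and group means as lines. Mrps18b, Mrpl12 and Mrps28 are lowest in DP control libraries, Mrpl52 and Mrpl18 peak in ISP, Mrps6 is highest in CD25, and Mrps26 and Mrpl49 were not called lower in DP than ISP.

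Against unstimulated CD25 cells, DP cells had 53 members lower and 8 higher (38.4% and 37.3% of all genes), with a median of -0.29. Here too, stage, culture and anti-CD3 cannot be told apart. The DP and CD25 ranges did not overlap for 40 lower and 4 higher members (32.8% and 31.4% of all genes). Mrps18b was 42.9 to 45.7 RPKM in CD25 and 13.6 to 21.1 in DP libraries, 2.56-fold lower (limma adjusted p = 2.9e-10). Mrpl19, Mrps2, Mrps6 and Mrpl23 followed, 1.95-fold to 2.20-fold lower. The members higher in DP were led by Mrps26, at 74.3 to 84.2 RPKM in CD25 and 103 to 134 in DP libraries, 1.48-fold (log2 change 0.55 ± 0.05, limma adjusted p = 2.7e-07). Mrpl53 (1.29-fold), Mrps11 (1.24-fold), Mrpl43 (1.20-fold) and Mrpl52 (1.21-fold) followed. The Mrpl52 ranges overlapped, and its call (limma adjusted p = 0.042) was lost in 13 alternatives, 1 of them voom on recovered reads (adjusted p = 0.074). Without CD25 control library 1, 5 members were higher, as with the 4 libraries of agreeing population. Over all 8 anti-CD3 libraries against CD25, 23 members were higher and 28 lower (35.6% and 36.5% of all genes), with a median of -0.06.

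The genotype comparisons asked whether the members differ between KO and control within a population. In CD25 cells 0 members were called in either direction in limma (0.0094% of all 10636 tested genes each way). At an unadjusted p under 0.05, 0 were higher and 7 lower (9.09%), against 4.79% and 4.35% of all genes, and limma voom on recovered reads also called 0. The median difference was -0.09 over the members and 0.01 over all genes. Of the 77, 68 (88.3%) were below 0, against 47.7% of all genes, and both KO libraries lay below both controls for 30 members (18.4% of all genes) and above for 1 (21.8%). Mrps22 was 43.1 and 51.0 RPKM in the CD25 control libraries and 37.5 and 39.8 in the CD25 KO libraries, without overlap (log2 difference -0.27 ± 0.09, limma adjusted p = 0.46). Mrpl19, at 16.49 and 16.7 RPKM in the CD25 control libraries and 16.7 and 17.6 in the CD25 KO libraries, was on the other side of 0 (limma adjusted p = 0.9). This fit had 4 libraries and 2 residual degrees of freedom.

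In ISP cells 0 members were called in either direction (0.257% of all genes were higher and 0.0973% lower). At an unadjusted limma p under 0.05, 3 were higher (3.90%) and 1 lower (1.30%), against 6.78% and 6.44% of all genes, and the median difference was 0.01 over the members and -0.01 over all genes. Both KO libraries were above both controls for 17 members (21.1% of all genes) and below for 11 (24.1%). Mrps18b was 44.0 and 48.4 RPKM in the ISP control libraries and 52.5 and 52.1 in the ISP KO libraries (log2 difference 0.18 ± 0.07, limma adjusted p = 0.32). Mrps26 lay lower in KO, at the values given above, with a log2 difference of -0.20 ± 0.06 (limma adjusted p = 0.19).

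In DP cells the members differed between genotypes. In KO libraries 43 of 77 were higher and 0 lower, where 14.1% of all genes were higher and 7.78% lower. The median difference was 0.27 over the members and 0.00 over all genes, and 71 of 77 were above 0. Both KO libraries exceeded both controls for 59 members (32% of all genes) and were below for 0 (30.3%). The 43 comprised 29 of 50 large-subunit and 14 of 26 small-subunit genes, and 29 of 48 with a bacterial homologue and 14 of 28 without. The summed KO level was 1.22 times the control level for the members, 1.19 times for cytosolic ribosomal proteins and 1.23 times for oxidative phosphorylation subunits. The count rested on few libraries: 20 members were higher without DP KO library 2, 26 without DP control library 1 and 27 without DP control library 2, and 19 of the 43 were called whichever library was left out. Summed RPKM over all genes was 423013 and 424114 in DP control and 447350 and 464317 in DP KO libraries. With every library rescaled to the same summed value, 25 members were higher. Grouped by sequencing library name instead of title, 0 members were higher and 62 lower. Libraries named DP KO all have DP titles and those named DP control all have ISP titles, so this contrast is DP against ISP by title. It cannot test the genotype difference by title, and too few libraries agree in both to repeat the comparison on them.

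Mrpl30 (ENSMUSG00000026087.11, chr1:37890477-37898535, plus strand), a large-subunit protein with a bacterial homologue, had the smallest p. It was 126 and 122 RPKM in the DP control libraries and 166 and 165 in the DP KO libraries. The KO values were 1.33-fold the control values without overlap (log2 difference 0.41 ± 0.05, limma adjusted p = 0.00051). Mrpl33, one of the most abundant members, was 204 and 213 RPKM in the DP control libraries and 267 and 273 in the DP KO libraries (1.30-fold, limma adjusted p = 0.0012). Mrps18b was 13.6 and 15.2 RPKM in the DP control libraries and 21.1 and 19.8 in the DP KO libraries (1.42-fold, limma adjusted p = 0.0015), so that the KO libraries remained under the ISP range of 44.0 to 52.5 RPKM. Mrpl20 was 139.8 and 133 RPKM in the DP control libraries and 175 and 191 in the DP KO libraries, 1.34-fold higher. Mrpl14 was 83.5 and 83.2 RPKM in the DP control libraries and 108 and 118 in the DP KO libraries, 1.35-fold higher (limma adjusted p = 0.0015 and 0.0016). Neither pair of groups overlapped. Mrps22 had the largest log2 difference, 0.65 ± 0.11, with 26.1 and 23.4 RPKM in control and 36.0 and 43.0 in KO libraries (limma adjusted p = 0.002). Mrpl12 was 1.36-fold and Mrps18c 1.45-fold higher, and Mrps12 1.22-fold. Mrps18a, at 59.3 and 69.9 and 73.3 and 81.2 RPKM, did not pass the test (limma adjusted p = 0.069), nor did Mrps36, at 36.1 and 34.6 and 35.9 and 38.9 RPKM (limma adjusted p = 0.71). Mrps31, Mrpl24, Mrps5, Mrps2, Mrpl9 and Mrpl53 had log2 differences below 0, from -0.12 for Mrps31 to -0.014 for Mrpl53, none of them called.

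**Figure D4:**
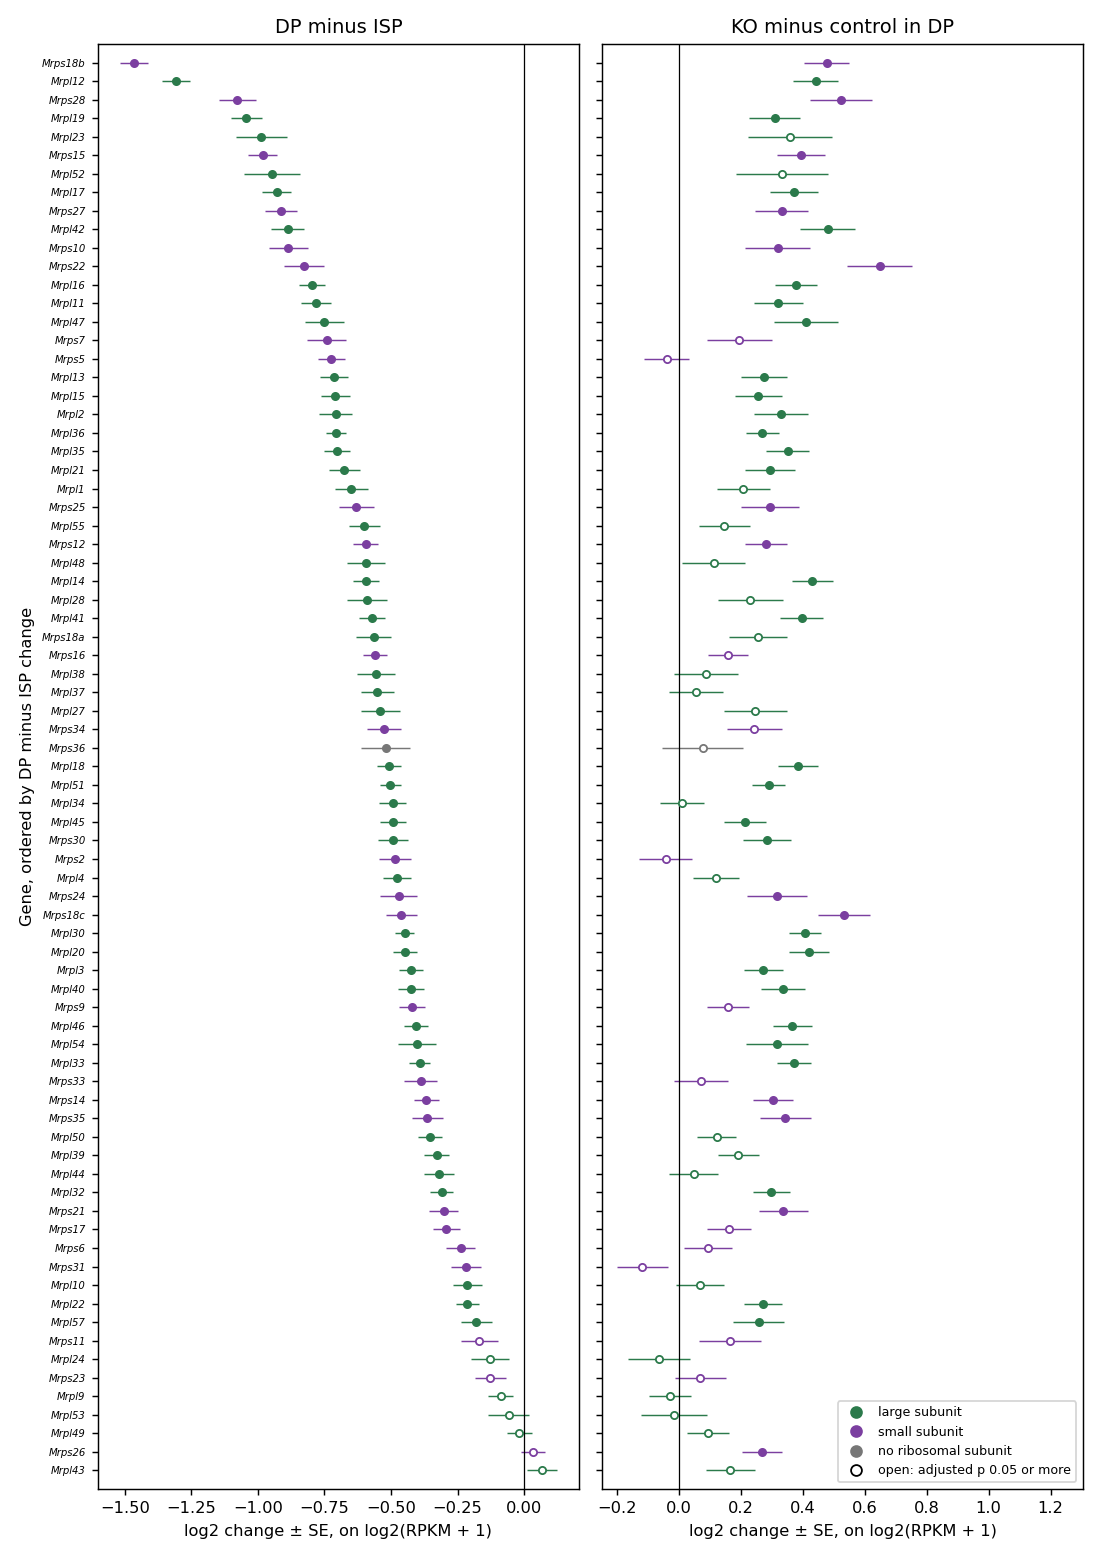
Log2 change on log2(RPKM + 1) with its SE (x axes) of each of the 77 members (y axis, ordered by the left panel), for DP minus ISP (left) and KO minus control in DP (right). Green is large subunit, purple small subunit, grey Mrps36, and open circles have an adjusted p of 0.05 or more. On the left 69 filled circles lie below 0, and on the right 43 lie above 0. The panels share the DP libraries.

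Other measures moved with genotype in DP cells. Cd4 was 344 and 338 RPKM in control and 249.5 and 191 RPKM in KO libraries, and the 3 coreceptor genes summed to 3690.0 to 3723 and 3007 to 3323 RPKM, with 1 of 3 called lower. Of the 7 tested myeloid markers 4 were higher in KO, and the list summed to 14.0 to 19.9 RPKM in control and 53.1 to 79.2 RPKM in KO libraries, most of it Lyz2, with Mpo at 0 to 0.129 RPKM and Csf3r at 0.0202 to 0.213 RPKM. In ISP cells, where 0 members were called, the myeloid list also summed to more in KO (44.1 and 59.5 RPKM) than in control libraries (17.46 and 17.47 RPKM). Of the 6 tested natural killer markers 2, Tyrobp and Gzma, were higher in KO. That list summed to 112 to 126 RPKM in control and 177 to 217 RPKM in KO libraries, most of it Gzma. Ncr1, Klrd1 and Klrb1c, all at means under 1 RPKM, had log2 differences of -0.54, -0.17 and -0.04. Nkg7 had 0.09, and none of these was called. Zbtb16 (0.0186 to 0.0337 RPKM) and Eomes (0 to 0.0464 RPKM) were not tested. Long nuclear RNAs summed to 234 to 258 RPKM in control and 134 to 222 RPKM in KO libraries. The part of these in the members' difference was not tested.

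Whether the genotype difference itself differed between DP and ISP was tested as an interaction. It was larger in DP for 7 members and smaller for 0 (3.67% and 0.522% of all genes), with a median of 0.25 against 0.01 over all genes. The 7 were Mrps26, Mrpl14, Mrpl33, Mrpl30, Mrpl20, Mrpl46 and Mrps15. For Mrpl14 the KO minus control difference was -0.05 ± 0.07 in ISP and 0.43 ± 0.07 in DP, and its interaction was 0.48 ± 0.09 (limma adjusted p = 0.018). Mrps26 had -0.20 ± 0.06 in ISP and 0.27 ± 0.06 in DP, an interaction of 0.47 ± 0.09 (limma adjusted p = 0.017). None of the 7 was called in every fit that left out 1 library. The count was 0 without ISP control library 2, ISP KO library 1, ISP KO library 2, DP control library 2 or DP KO library 2. It was 1 without DP control library 1, 3 without ISP control library 1, 4 without either CD25 KO library and 20 without DP KO library 1.

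**Figure D5:**
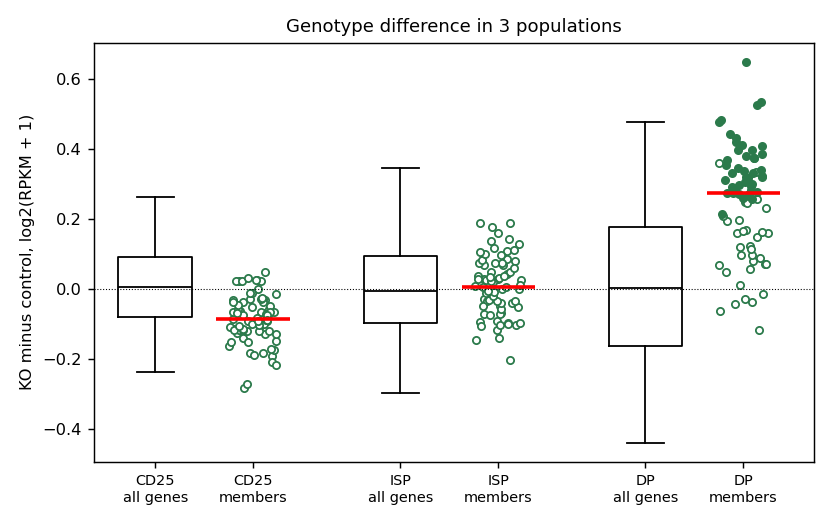
KO minus control on the log2(RPKM + 1) scale (y axis) in the 3 populations (x axis). Boxes show all tested genes (quartiles, median and whiskers from the 5th to the 95th percentile), green circles the 77 members (filled where called) and red lines their medians, which are -0.09 in CD25, 0.01 in ISP and 0.27 in DP. Filled circles appear in DP, where 43 members were called.

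Other parts of the mitochondrial translation system were taken from lists. Their counts, here and in the next 2 paragraphs, stand beside the shares of all tested genes. These were 33.1% higher and 30.9% lower in ISP than CD25, and 35.6% higher and 35% lower in DP than ISP. In DP KO they were 14.1% higher and 7.78% lower. Of 6 further mitoribosome proteins with other names, 5 were higher and 0 lower in ISP than CD25, 0 were higher and 4 lower in DP than ISP, and 5 were higher in DP KO. Dap3, a small-subunit GTP-binding protein, was 21.5 to 22.9 RPKM in CD25 cells, 41.8 to 49.7 RPKM in ISP cells and 41.4 to 47.5 RPKM in DP cells, 2.05-fold higher in ISP than CD25 (limma adjusted p = 3.7e-09) and not called between DP and ISP. Chchd1 fell from 221 to 225 to 119 to 164 RPKM between ISP and DP. Of 15 translation factors 1 was higher and 9 lower in DP than ISP, Tsfm, the elongation factor Ts, among the latter (55.1 to 56.6 to 22.3 to 33.3 RPKM). In DP KO 3 of the 15 were higher and 0 lower, Slirp, an RNA-binding protein that partners Lrpprc, among them (90.2 and 89.1 RPKM in control, 101 and 128 RPKM in KO libraries).

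Of 25 assembly factors, 3 were higher and 8 lower in ISP than CD25 (33.1% and 30.9% of all genes). In DP, 4 were higher and 12 lower than in ISP (35.6% and 35% of all genes). C1qbp, a matrix protein needed for mitochondrial translation, was 232 to 276 RPKM in ISP, 55.6 and 50.9 in DP control and 74.0 and 83.0 in DP KO libraries. Its DP mean was 3.91-fold below ISP (log2 change -1.98 ± 0.06, limma adjusted p = 1.4e-10), and its KO values were 1.47-fold the DP controls (limma adjusted p = 0.0012). In DP KO 3 of the 25 were higher and 1 lower, near or under the shares of all genes (14.1% and 7.78%). The lower one was the RNA helicase Dhx30, at 34.5 and 37.1 RPKM in control and 31.0 and 28.9 RPKM in KO libraries (limma adjusted p = 0.034). Of 11 genes of mitochondrial DNA upkeep and transcription, 3 were higher and 5 lower in DP than ISP. Polg, the mitochondrial DNA polymerase, rose from 2.56 to 3.41 RPKM in CD25 cells to 10.9 to 14.1 RPKM in ISP cells, as most members did, and rose again to 15.8 to 23.6 RPKM in DP cells, where most members fell. In DP KO 1 of the 11 was higher, Mgme1, and 1 lower, Polg itself, at 21.8 and 23.6 RPKM in control and 18.4 and 15.8 RPKM in KO libraries (limma adjusted p = 0.022 and 0.03).

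Among 12 regulators of mitochondrial genes, of which 11 were tested, 4 were higher and 3 lower in DP than ISP (35.6% and 35% of all genes). In DP KO 3 were higher and 0 lower (14.1% and 7.78% of all genes). Myc, an activator of growth genes, was 172 and 189.8 RPKM in the CD25 control libraries and 195 and 196 in the CD25 KO libraries. In ISP cells it was 130.2 and 138 RPKM in the ISP control libraries and 152 and 153 in the ISP KO libraries. It was 20.9 and 18.8 RPKM in the DP control libraries and 35.5 and 41.6 in the DP KO libraries. Its DP mean was 4.91-fold below ISP (limma adjusted p = 6.2e-11), and its DP KO values were 1.94-fold the controls without overlap (limma adjusted p = 0.0001). Pprc1, a coactivator of the PGC-1 family, was 10.2 to 12.4 RPKM in ISP and 2.32 to 4.23 in DP libraries. Nrf1 rose instead, with 19.9 to 23.4 RPKM in CD25 cells, 30.9 to 32.6 RPKM in ISP cells and 36.9 to 40.1 RPKM in DP cells, and was not called between genotypes in DP (limma adjusted p = 0.75). Cytosolic ribosomal proteins were lower in DP than ISP for 76 of 79 tested genes and higher for 0, with a median of -0.98, and oxidative phosphorylation subunits lower for 67 of 75 and higher for 2, with a median of -0.47. In DP KO 50 of 79 and 53 of 75 were higher and 0 lower.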

How the data were processed

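RNA-seq of 12 libraries from sorted mouse thymocytes was used, in 6 groups of 2. The deposited values are RPKM per gene, made by the authors; reads were aligned with BWA to GRCm38, per the submitters' processing notes, while the sources used here do not give the counter, annotation or tool versions. All 169595 values above 0 (100%) were whole reads within 0.02 when divided by the value of 1 read, and the denominators were 9508841 to 14356391. The values were already on a median-of-ratios scale. Between the 2 libraries of a group, recovered reads varied more than by counting error. Chi-square over degrees of freedom was 3.26 to 7.12, where counting error alone gives about 1.

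Values were tested as log2(RPKM + 1) in limma 3.58.1 (R 4.3.3, trend on mean level). Genes below 1 RPKM in all but 1 library were dropped, which left 11303. All 6 groups shared 1 fit with 6 residual degrees of freedom; CD25 genotypes used their 4 libraries (10636 genes, 2). This scale understates changes of low genes. P-values were adjusted over all tested genes by Benjamini-Hochberg. Folds are ratios of mean RPKM. The procedure was run on simulated independent libraries with the same excess spread for every gene and group, which does not give its error rates for these data. Lists are described by counts, with no test of a list.

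Named members are the 3 highest and 3 lowest, up to 5 per direction by size of change between populations or by p between genotypes, and Mrpl12, Mrps12, Mrps18a, Mrps18b, Mrps18c and Mrps36. List genes are up to 4 per list by p. Members and lists were chosen with earlier results of these data known. Mrpl49 was chosen after its values were seen, for the smallest spread over the 12 libraries. Alternatives were other pseudocounts (0.1, 5), filters, scaling, no trend, voom on recovered reads, a replicate block, grouping by library name, only the compared groups, and each library left out. Gene positions are from GENCODE M21 and promoters from RefSeq GRCm38.p6. Plots used matplotlib 3.10.9.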

Additional observations from a re-analysis of the deposited data

Results flagged for a closer look

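For 7 members the KO minus control difference was larger in DP than in ISP cells by a test of the difference itself (limma interaction term, adjusted p under 0.05 over all genes, 2 libraries per group). Values are log2 differences on log2(RPKM + 1) ± SE. Mrps26, a small-subunit protein, had -0.20 ± 0.06 in ISP and 0.27 ± 0.06 in DP, a gap of 0.47, and was the one of the 7 whose ISP difference was well below 0. Mrpl14 had -0.05 ± 0.07 in ISP and 0.43 ± 0.07 in DP, a gap of 0.48. Mrpl33 had -0.00 ± 0.06 in ISP and 0.37 ± 0.06 in DP, a gap of 0.38. Among the more abundant members, Mrpl30 had 0.07 ± 0.05 in ISP and 0.41 ± 0.05 in DP, a gap of 0.34, and Mrpl20 had 0.04 ± 0.06 in ISP and 0.42 ± 0.06 in DP, a gap of 0.38. For Mrpl46, which shares overlapping exons with Mrps11, the gap was 0.37 (-0.00 ± 0.06 in ISP and 0.37 ± 0.06 in DP). Mrps15, at 46.7 and 40.8 RPKM in DP control and 57.2 and 58.3 in DP KO libraries, had a gap of 0.43 (-0.03 ± 0.08 in ISP and 0.40 ± 0.08 in DP, adjusted p = 0.0499 for the gap). For all 7, both DP KO libraries were above both DP controls, as for 59 of the 77 members and 32% of all genes. The test that picked the 7 used these same libraries, so this is no separate support. None of the 7 calls held in every fit with 1 library left out.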

How the results depend on the processing

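The fall of the members from ISP to DP held in every setting run with groups by title: 64 to 71 of 77 were lower. Rescaling every library to the same summed value gave 31 members higher and 7 lower in ISP than CD25 (52 and 2 as reported), 3 higher in DP than ISP (0 as reported), 25 higher in DP KO (43 as reported) and 2 for the interaction (7 as reported). The interaction also gave 2 with no filter on low values and 0 with no trend. Grouping by sequencing library name gave 14 members higher and 19 lower in ISP than CD25, 0 lower in DP than ISP, 19 lower in DP than CD25, 62 lower in ISP KO, 0 higher and 62 lower in DP KO, and 0 for the interaction. Under that grouping the log2 values that changed sign were -0.063 for Mrpl12 in ISP against CD25; -1.48 for Mrps18b, -0.36 for Mrpl44, -0.47 for Mrps34 and -0.42 for Mrps30 in ISP KO; -0.42 for Mrpl30, -0.40 for Mrpl33, -1.45 for Mrps18b, -0.45 for Mrpl20 and -0.65 for Mrpl14 in DP KO; and -0.024 for Mrps26, -0.12 for Mrpl14, -0.011 for Mrpl33 and -0.015 for Mrpl20 in the interaction. Anti-CD3 libraries named control all have ISP titles, and those named KO all have DP titles. By name, KO against control is therefore DP against ISP by title, and DP against ISP by name has both titles on each side. This grouping thus cannot check the genotype differences by title, and causes were not tested beyond this.

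With only the 4 anti-CD3 libraries of agreeing population, an alternative chosen after seeing the data, 5 members were higher in DP than CD25 (8 as reported). With 1 library left out in turn, members higher in ISP than CD25 numbered 43 to 53 and lower 2 to 3. Members higher in DP than CD25 numbered 5 to 9 and lower 48 to 55. Over all anti-CD3 libraries against CD25 the ranges were 17 to 25 higher and 25 to 32 lower. Members higher in DP KO numbered 20 to 49, and the interaction gave 0 to 20. Of the calls as reported, 43 of 54 in ISP against CD25, 68 of 69 in DP against ISP, 53 of 61 in DP against CD25, 19 of 43 in DP KO and 0 of 7 in the interaction held in every such fit. Where 1 library was left in a group, it was assumed to vary like the others.

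Differences between libraries 1 and 2 correlated most for ISP control and DP control (0.125), and from -0.066 to 0.078 for other pairs of groups. With 2 libraries per group this cannot tell whether same-numbered libraries came from the same thymi. With the replicate number as a block, 53 members were higher and 2 lower in ISP than CD25, 70 lower in DP than ISP, 44 higher in DP KO and 10 for the interaction.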

Other observations

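Across the 77 members, which share the 12 libraries and are not independent replicates, the change from CD25 to ISP was described by a Pearson r of -0.34 with gene length (Spearman -0.33) and of 0.36 with mean level (Spearman 0.44). For the change from ISP to DP these were -0.07 with length (Spearman 0.01) and 0.14 with level (Spearman 0.17). For the genotype difference in DP they were -0.15 with length (Spearman -0.26) and 0.29 with level (Spearman 0.27). The annotation names 5 pseudogenes after members, and reads of near-identical copies could be counted for either.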
